A study of Mus musculus with 12 samples.

Results

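Messenger RNA levels of 49 genes for lysosomal enzymes, lysosomal membrane and transport proteins and the lysosomal proton pump were followed in MIN6 cells, a mouse insulinoma line labelled as a pancreatic beta cell, across the withdrawal and return of amino acids. The genes were chosen by name, with earlier results of these data known, and every row of the deposited count tables whose gene name was on the list was taken, which gave 49 of 49315 genes. They fall into 26 hydrolases, counting the activator precursor Psap, 8 membrane or lumenal transport proteins and 15 subunits of the V-ATPase. All 49 were expressed well enough to be tested, among 16844 tested genes.

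The cells were wild type in all 12 libraries, which form 4 groups of 3. Control cells were cultured without further treatment, a starved group had no amino acids during 16 h, a re-added group had them returned during 3 h, and a Rap group had them returned during 3 h along with a compound that the labels name only as Rap. How long amino acids were absent before their return is not labelled. Nor is the origin of the replicates: p-values here express variation among the libraries, which may be technical. Total RNA was sequenced in pairs of 150 bases, and 18555958 to 25631056 reads were assigned to genes in each library.

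Lysosomal hydrolases are acid enzymes that break down proteins, glycans, sulfated sugars and lipids delivered by autophagy and endocytosis, and the V-ATPase is a rotary pump whose cytosolic V1 sector hydrolyses ATP while its membrane V0 sector carries protons into the lumen. Many of these genes carry a palindromic E-box near their start site that is bound by the MiT/TFE transcription factors (TFEB, TFE3, MITF), which are held in the cytosol when the amino acid sensor mTORC1 is active at the lysosomal surface. In beta cells lysosomes also take up whole insulin granules, by crinophagy and related routes.

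Before the levels, the sequence that this regulation is known for is shown in these genes. RefSeq start sites on GRCm38.p6 gave a promoter window of 300 bases, from 250 before to 50 after the start, for 42 of the 49 genes. The E-box CACGTG, which reads the same on both strands, stood in the windows of 17 of these 42 genes, and in 36.2% of their 47 windows. Among all 32851 windows the share was 7.15%, and among the windows of tested genes 9.28%. In lists of other lysosomal genes it was 6.45% for hydrolases, 17.6% for membrane proteins and transporters and 0% for V-ATPase isoforms. It was 37.5% for V-ATPase assembly genes and 42.9% for genes of lysosomal sorting. The longer palindrome TCACGTGA, each copy of which contains an E-box, stood in 17% of the 47 windows. Its share was 0.974% of all windows and 1.61% of the windows of tested genes. Flanked further by G and C, the complete element of 10 bases stood in 1 of the 42 genes, Cln3. It stood in 0.326% of all windows and in 14.3% of those of sorting genes. A match describes the letters and is not a measured binding site. The stretches below, 5′ to 3′ on the gene's strand with the E-box or its longer form in capitals, come from genes that differ widely in how they behaved: Cln3, Mcoln1, Gla, Ctsa, Gaa, Ctsf and Arsa changed in at least 1 comparison, while Lamp1, Atp6v0b and Atp6v1a changed in none.
Cln3, chr7:126583332-126583405, minus strand: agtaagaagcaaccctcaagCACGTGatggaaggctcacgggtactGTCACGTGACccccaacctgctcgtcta
Mcoln1, chr8:3500428-3500499, plus strand: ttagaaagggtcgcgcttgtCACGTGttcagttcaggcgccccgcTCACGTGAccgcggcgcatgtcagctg
Lamp1, chr8:13159080-13159160, plus strand: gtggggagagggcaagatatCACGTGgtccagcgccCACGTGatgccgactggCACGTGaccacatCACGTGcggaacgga
Gla, chrX:134601174-134601252, minus strand: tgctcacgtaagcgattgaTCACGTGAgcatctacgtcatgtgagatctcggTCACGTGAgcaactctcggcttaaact
Ctsa, chr2:164833741-164833772, plus strand: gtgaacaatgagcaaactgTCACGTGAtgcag
Gaa, chr11:119267803-119267848, plus strand: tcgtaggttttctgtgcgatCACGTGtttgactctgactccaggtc
Ctsf, chr19:4855066-4855111, plus strand: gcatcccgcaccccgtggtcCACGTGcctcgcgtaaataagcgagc
Arsa, chr15:89477425-89477460, minus strand: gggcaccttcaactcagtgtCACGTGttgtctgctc
Atp6v0b, chr4:117887330-117887385, minus strand: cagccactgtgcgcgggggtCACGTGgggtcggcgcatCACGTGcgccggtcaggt
Atp6v1a, chr16:44139365-44139410, minus strand: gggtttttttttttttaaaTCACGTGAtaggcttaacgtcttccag

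**Figure D1:**
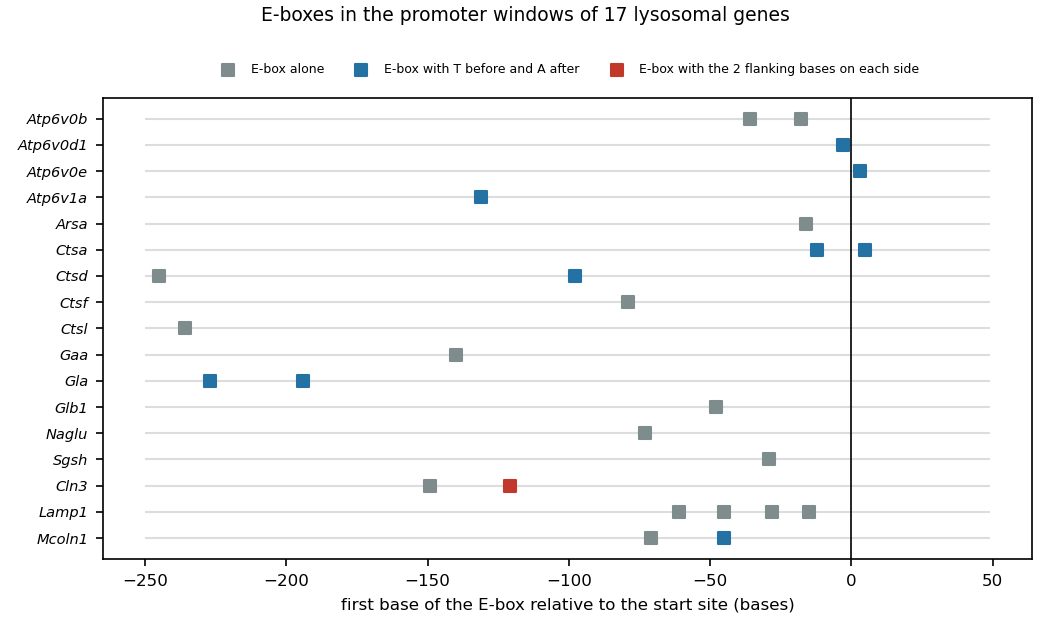
Position of each E-box in the promoter window of the 17 lysosomal genes that hold at least 1, from 250 bases before to 50 after the RefSeq start site (x axis, bases); squares mark the first base of a match, grey for the E-box alone, blue with T before and A after, red for the complete element. Lamp1 has 4 E-boxes before its start site, and Cln3 is the gene with the complete element.

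RNA of other cell types was present in unequal amounts and is given first. Lysosomal genes are also active in macrophages. The summed level of 34 markers of fibroblasts, leukocytes and endothelium was 1792, 2133 and 2033 CPM (counts scaled to equal library totals) in the control libraries, 1751, 146 and 845 in the starved, 727, 135 and 131 in the re-added and 132, 129 and 129 in the Rap libraries. The leukocyte marker Lyz2 and the lung surfactant gene Sftpc were at 514 and 635 CPM in control replicate 1 and at 10.3 and 16.3 CPM in Rap replicate 1. The beta cell markers, led by Ins2, summed to 32860 to 56270 CPM in every library. Among the 49 genes, starved replicate 2, the starved library with the lowest marker sum, was the highest of the 3 starved libraries for 44, and starved replicate 1, with the highest marker sum, was the lowest for 44. In bulk RNA fewer cells of a type and less RNA per cell cannot be told apart. Where the marker RNA in these libraries of a cell line came from is not labelled and was not tested.

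On starvation most hydrolases and membrane proteins rose, and 6 of the 15 pump genes did. Against control, 31 of the 49 genes rose and 1 fell (edgeR quasi-likelihood test, Benjamini-Hochberg adjusted p under 0.05), against 38.9% of all tested genes called, 24.3% higher and 14.6% lower. With upper-quartile factors 22 rose and 4 fell (39.4% of all tested genes called), and in TPM 40 and 1 (44.1%). The 3 starved and 3 control libraries did not overlap for 31 of the 49, against 50.1% of all tested genes. The median log2 fold change was 0.31 over the 49 genes and 0.01 over all tested genes, or 0.16 and -0.13 with upper-quartile scaling. Among the hydrolases 19 of 26 rose, with all 26 above 0 and a median of 0.44. Among the membrane and transport proteins 6 of 8 rose, with a median of 0.41 (0.27 with upper-quartile scaling). In the V-ATPase 6 of 15 rose and 1 fell, with a median of 0.13 that was below 0 with upper-quartile scaling and with libraries matched on marker sum (-0.02 and -0.01). This median was 0.20 without control replicate 1, 0.05 without control replicate 3, 0.04 without starved replicate 2, 0.02 with the marker sum in the model, 0.07 with DESeq2 size factors and 0.25 in TPM. Upper-quartile scaling moved the median of all genes by -0.14 and TPM by 0.11, and relative to the median of all genes the 49 genes stood at 0.29, 0.29 and 0.31 under the 3 scalings. A change of scaling moves all genes of a library nearly alike, so the closeness of these relative values is no test of the scaling. The share of higher calls among all called genes was 62.5% with TMM, 44.6% with upper-quartile factors and 72.4% in TPM. The part of the marker RNA in these differences was not tested. With starved replicate 1 alone, whose marker sum was like that of the control libraries and whose spread is taken from the other groups, 19 genes were higher and 1 lower, where 18.1% of all genes tested in that fit were called. With the marker sum in the model 23 were higher and 1 lower, where 31.6% of all genes were called.

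**Figure D2:**
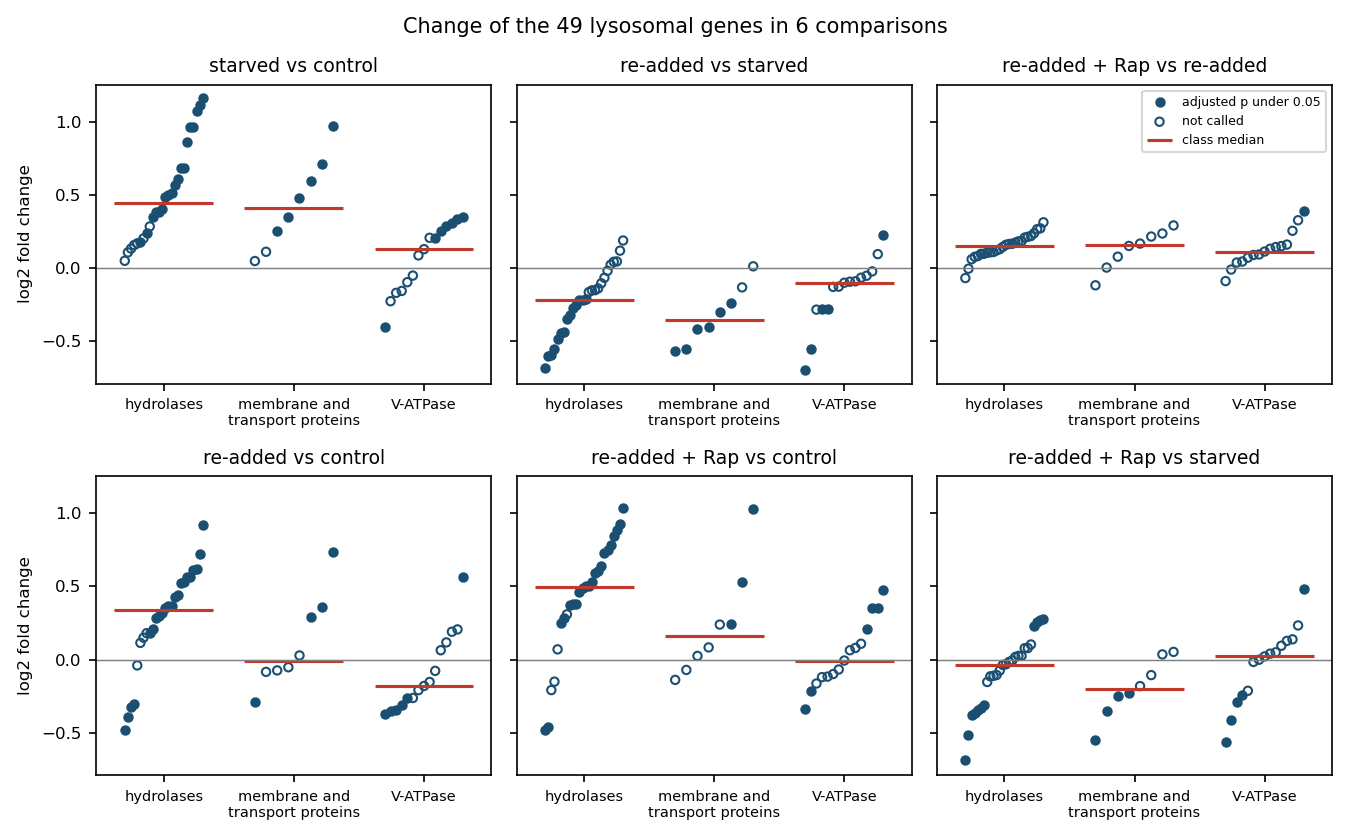
Log2 fold change (y axis) of the 49 genes by class (x axis) in each of the 6 comparisons; each point is a gene, filled where the adjusted p was under 0.05, and the red line is the class median. Hydrolases and membrane proteins lie mostly above 0 in the starved libraries, where 19 of 26 and 6 of 8 were called higher, and the V-ATPase spreads over both sides of 0.

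Among the proteases, 6 of 7 rose. Tpp1 (ENSMUSG00000030894, chr7:105744811-105752235, minus strand), the lysosomal tripeptidyl peptidase, was at 75.3, 66.4 and 74.1 CPM in control, 143, 168 and 157 in starved, 103, 106 and 111 in re-added and 128, 120.3 and 115 in Rap libraries. All starved libraries stood above all others, and the control libraries below all others. The change on starvation was 1.12 (SE 0.08, edgeR adjusted p = 1.79e-06). Ctsf, the cysteine protease cathepsin F, was at 126, 165 and 130.3 CPM in control and 245, 299.9 and 278 in starved libraries, with no overlap, a log2 fold change of 0.97 (SE 0.10, edgeR adjusted p = 3.46e-05). Ctsa, the protective carboxypeptidase that stabilises galactosidase and neuraminidase, rose by 0.57, and Ctsl, cathepsin L, by 0.51. Ctsd, the aspartic protease cathepsin D, rose by 0.39, a call lost with upper-quartile factors. Ctsb, cathepsin B, rose by 0.18, a call lost without control replicate 2, without any of the starved libraries and without re-added replicate 1 or 2. Ctsz, cathepsin Z, did not pass, with overlapping libraries at 431, 571 and 486 CPM in control and 533, 579 and 561 in starved cells.

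Among the glycosidases, 8 of 10 rose. Galc (ENSMUSG00000021003, chr12:98202304-98259459, minus strand), which cleaves galactose from galactosylceramide, had the largest increase of the 49 genes. It was at 39.5, 36.0 and 36.9 CPM in control and at 80.6, 94.2 and 76.9 CPM in starved libraries, then at 53.9, 55.8 and 56.8 in re-added and 61.5, 69.6 and 62.7 in Rap libraries. No group overlapped another. Its change on starvation was 1.16 (SE 0.085, edgeR adjusted p = 2.18e-06). Gaa (ENSMUSG00000025579, chr11:119267887-119285454, plus strand), the acid glucosidase that degrades lysosomal glycogen, was at 597, 668 and 775 CPM in control and 1269, 1524 and 1492 in starved libraries. Its change was 1.07 (SE 0.099, edgeR adjusted p = 1.24e-05). Idua, which trims iduronic acid from heparan and dermatan sulfate, rose by 0.86, and Hexa, the alpha chain of hexosaminidase, and Man2b1, the acid mannosidase, each by 0.68. Gusb, the glucuronidase, and Glb1, the acid galactosidase, rose by 0.39 and 0.35. Naglu, which removes N-acetylglucosamine from heparan sulfate, rose by 0.24, a call lost without control replicate 1 or 2 or starved replicate 2 or 3. Gla, the galactosidase of globotriaosylceramide, and Neu1, the sialidase, did not pass.

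The other hydrolases were more mixed. Of the 4 sulfatases 3 rose: Arsa, which desulfates sulfatide, by 0.96, Sgsh, the heparan sulfamidase, by 0.61, and Ids, which removes sulfate from iduronic acid, by 0.50 (edgeR adjusted p = 1.07e-05, 1.44e-04 and 9.41e-04). Arsa was at 54.6, 66.0 and 65.7 CPM in control and 109, 130.1 and 125 in starved libraries, with no overlap. Arsb varied most within control, at 97.0, 68.8 and 119 CPM, and was called in none of the 6 comparisons. Of the 5 lipid hydrolases and activators only Ppt1, which removes palmitate from proteins, and Psap, the precursor of the saposins, rose, by 0.48 and 0.40. Psap was the most abundant hydrolase gene per length, at 1793 ± 123 TPM in control and 2582 ± 85.8 TPM in starved libraries (SD, n = 3). Asah1 (acid ceramidase), Smpd1 (acid sphingomyelinase) and Lipa (acid lipase) did not pass.

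**Figure D3:**
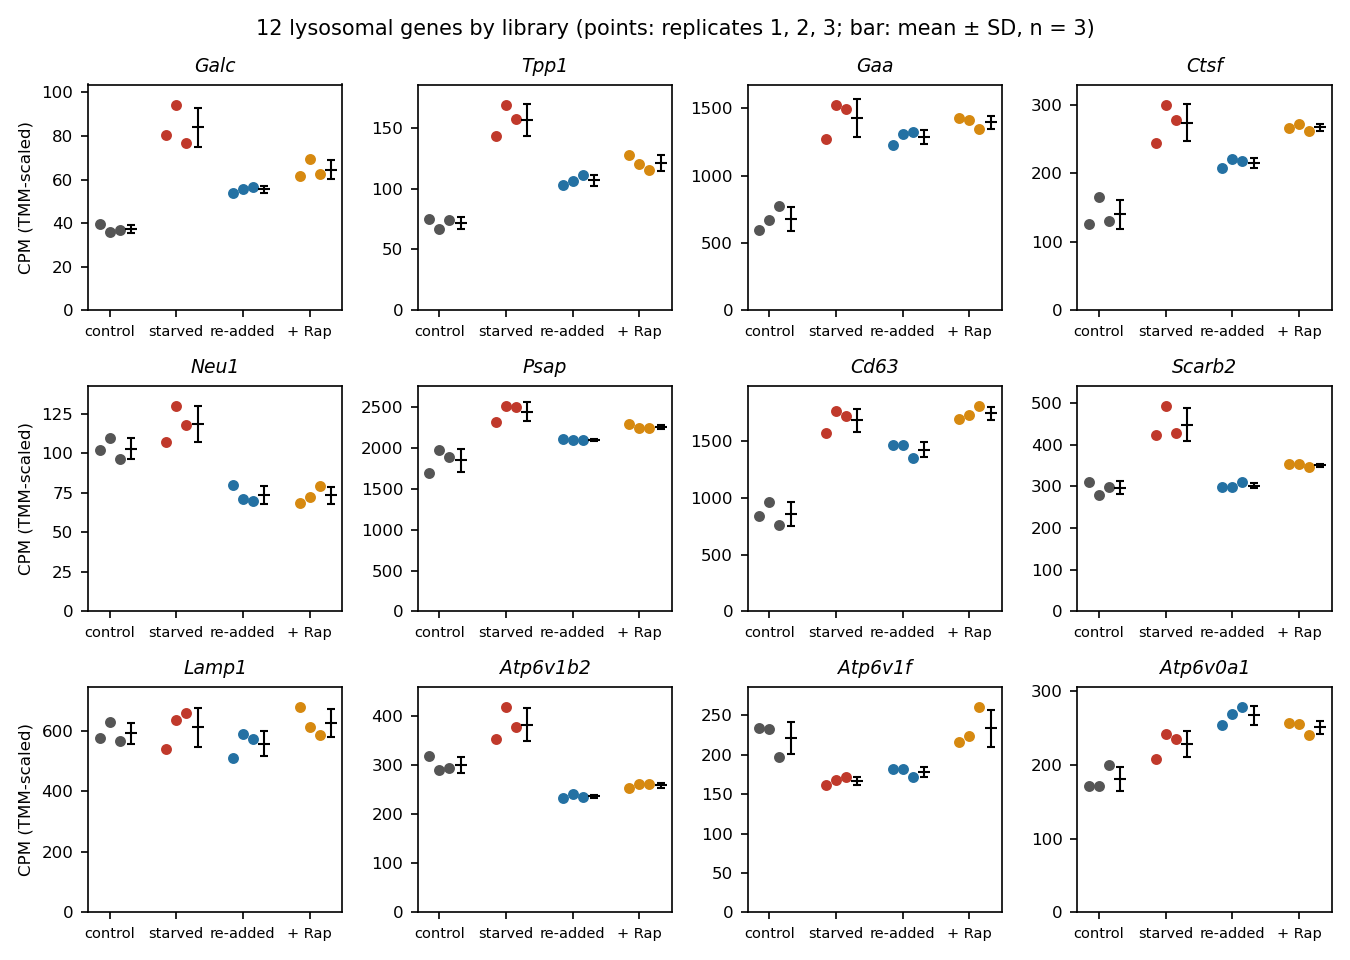
CPM scaled by TMM factors (y axis, from 0) of 12 lysosomal genes in each of the 12 libraries (points), with the mean ± SD of each group (n = 3, black). Galc and Tpp1 are highest in starved cells, Neu1 and Atp6v1b2 lie below control after re-addition, and the starved and control libraries of Lamp1 overlap.

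Of the membrane glycoproteins, Cd63, Lamp2 and Scarb2 rose while Lamp1 did not pass. Cd63 (ENSMUSG00000025351, chr10:128908919-128912816, plus strand), a tetraspanin of late endosomes and lysosomes, was the most abundant of the 49 genes, at 2199.5 ± 113 TPM in control and 4719.7 ± 74.9 TPM in starved cells (SD, n = 3). Its libraries were at 844, 967 and 760.0 CPM in control and 1567, 1762 and 1719 in starved cells, a change of 0.97 (SE 0.088, edgeR adjusted p = 1.04e-05). Lamp2, whose A isoform is the receptor of chaperone-mediated autophagy, was at 377, 310.5 and 317 CPM in control and 502, 639 and 503 in starved libraries, and rose by 0.71. Scarb2, which carries glucocerebrosidase to lysosomes, was at 311, 279.7 and 298 and 423, 492 and 429 CPM and rose by 0.60. All 3 were separated from control without overlap. Lamp1 (chr8:13159161-13175338), with Lamp2 the main coat protein of the lysosomal membrane, was at 578, 629 and 567 CPM in control and at 539, 636 and 660.1 in starved libraries, which overlap (edgeR adjusted p = 0.694). It carries the 4 E-boxes shown above and was called in none of the 6 comparisons.

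Of the channel and sterol transport genes 3 of 4 rose on starvation. Cln3, a lysosomal membrane protein lost in a juvenile neuronal storage disease, was at 23.7, 29.6 and 27.6 CPM in control and 33.8, 38.8 and 39.9 in starved libraries, a change of 0.48 (SE 0.096, edgeR adjusted p = 0.00209). Mcoln1, the calcium channel TRPML1, rose by 0.25, a call lost without control replicate 1. Npc1, which exports cholesterol from the lysosome, rose by 0.35, a call lost without starved replicate 1 or 3. Its lumenal partner Npc2 overlapped, at 303, 364 and 295 CPM in control and 372, 321 and 346 in starved libraries.

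The 15 V-ATPase genes did not move as a block. Per length, control levels ran from 40.8 ± 2.31 TPM for Atp6v1h, a regulatory V1 subunit, to 599.6 ± 74.9 TPM for Atp6v0b, a proteolipid of the membrane ring (SD, n = 3). In the V0 sector, Atp6v0a1, the subunit that forms the path of the protons, rose by 0.33 from 172, 172 and 199.6 to 208, 242 and 235 CPM, and the proteolipid Atp6v0c rose by 0.26, a call lost without control replicate 1 or starved replicate 2 or 3. In the V1 sector, Atp6v1b2 (ENSMUSG00000006273, chr8:69088646-69113711, plus strand), a nucleotide-binding subunit, rose by 0.35 from 319.7, 289.8 and 294 to 353, 419 and 378 CPM, and the central stalk subunit Atp6v1d by 0.29. Both accessory proteins, Atp6ap1 and Atp6ap2, rose, by 0.21 and 0.31, calls lost without control replicate 1 or starved replicate 2, and for Atp6ap2 also without control replicate 3. Atp6v1f (ENSMUSG00000004285, chr6:29467718-29470512, plus strand), the other central stalk subunit, was the gene that fell. It was at 234, 233 and 197 CPM in control and 162, 168 and 171 in starved libraries, with no overlap and a log2 fold change of -0.40 (SE 0.087, edgeR adjusted p = 0.00333). Atp6v0b, Atp6v1a, Atp6v1e1, Atp6v1g1 and Atp6v1h were called in none of the 6 comparisons.

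**Figure D4:**
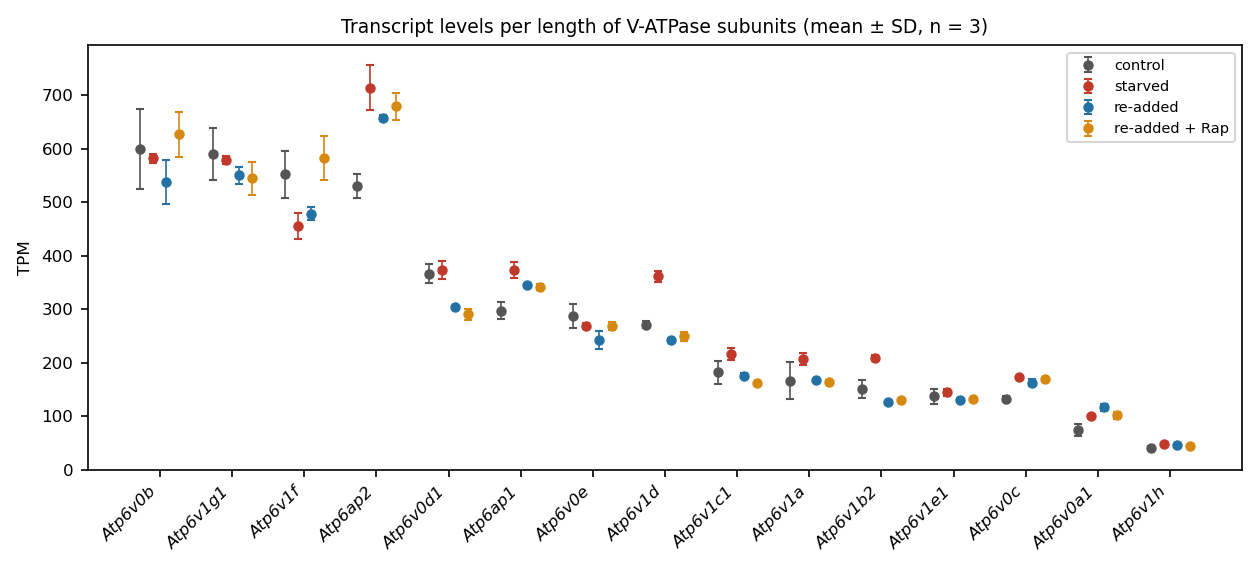
Level per length (y axis, TPM from 0) of the 15 V-ATPase genes, ordered by their control level, as mean ± SD of 3 libraries in each group. Atp6ap2, Atp6v1d and Atp6v1b2 are highest in starved cells, and Atp6v1f is lowest there.

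Summed per length over each class, the hydrolase transcripts came to 6352, 6337 and 6813 TPM in control and 9832, 9742 and 9693 TPM in starved libraries, and the membrane and transport proteins to 3383, 3363 and 3204 TPM in control and 6198, 6005 and 6186 TPM in starved libraries. The starved sums lay above the control sums in each library. The V-ATPase sums were closer, at 4624, 4361 and 4150 TPM in control and 4851, 4880 and 4689 TPM in starved libraries. After re-addition the mean sums were 8429 ± 118 TPM for hydrolases, 5077 ± 118 TPM for membrane and transport proteins and 4284 ± 78.4 TPM for the V-ATPase, and in the Rap group 8648 ± 272, 5679 ± 59.1 and 4487 ± 65.8 TPM (SD, n = 3). Psap carries the largest part of the hydrolase sum and Cd63 of the membrane sum.

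Return of amino acids for 3 h lowered part of these genes, the pump subunit Atp6v1b2 and the sialidase Neu1 by the largest amounts. Against starved cells, 24 of the 49 genes fell and 1 rose, where 37.3% of all tested genes were called, 18.8% lower and 18.4% higher. The libraries did not overlap for 30 of the 49, against 50.6% of all tested genes. The median was -0.21 over the 49 genes and -0.06 over all tested genes. By class, 14 of 26 hydrolases fell with a median of -0.22, 6 of 8 membrane and transport proteins with a median of -0.35, and 4 of 15 V-ATPase genes with a median of -0.10, while 1 V-ATPase gene rose. The V-ATPase median was -0.06 without starved replicate 2, -0.04 with upper-quartile factors and -0.19 with libraries matched on marker sum. With starved replicate 2 against re-added replicates 2 and 3, whose marker sums were alike, 12 genes were lower, where 20.1% of all genes tested in that fit were called. In that fit the lone starved library stands for its group and takes its spread from the others.

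Neu1 (ENSMUSG00000007038, chr17:34931253-34935953, plus strand), which removes sialic acid and acts in complex with Ctsa, fell most among the hydrolases. It was at 107, 129.8 and 118 CPM in starved and 80.1, 71.2 and 69.8 in re-added libraries, without overlap, a change of -0.68 (SE 0.09, edgeR adjusted p = 1.16e-04). Its control libraries, at 102, 109.8 and 96.6 CPM, also stood above every re-added library. Arsa fell by 0.60 to 76.8, 82.9 and 80.1 CPM, Galc by 0.59 and Tpp1 by 0.55, and these 3 stayed above their control libraries. The sphingolipid and lipid enzymes Gla, Lipa and Asah1, which had not passed on starvation, changed by -0.48, -0.45 and -0.44 on re-addition (edgeR adjusted p = 0.0054, 0.00156 and 0.00155). The proteases Ctsa, Ctsb, Ctsd and Ctsf also fell. Of these calls, that of Ctsa was lost without starved replicate 2, re-added replicate 2 or 3 or any Rap library, that of Ctsb without re-added replicate 3, and that of Ctsd without starved replicate 1 or 2 or re-added replicate 2 or 3. Hexa, Idua and Psap fell by 0.32, 0.25 and 0.22, also calls that single libraries ended: re-added replicate 2 or 3 for Hexa, starved replicate 3 or re-added replicate 2 or 3 for Psap, and 9 of the 12 libraries for Idua, all but control replicates 2 and 3 and re-added replicate 3.

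Other hydrolases showed no call after 3 h. Gaa was at 1224, 1306 and 1324 CPM in re-added libraries, a difference from starved cells of -0.15 (SE 0.098, edgeR adjusted p = 0.234). Sgsh was at 28.2, 30.5 and 30 CPM in starved and 32.6, 30.6 and 33.0 in re-added libraries, each above its control libraries at 18.2, 19.1 and 20.9 CPM. Gusb, Ids, Naglu, Ctsl and Smpd1 were not called either.

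Among the membrane and transport proteins, Scarb2 fell by 0.57 to 299, 298 and 309 CPM, which lies within the range of its control libraries, and Cln3 by 0.55 to 25.7, 26.1 and 24.9 CPM, likewise within the control range (edgeR adjusted p = 8.21e-05 and 8.05e-04). Lamp2 fell by 0.42, Npc2 by 0.40 and Mcoln1 by 0.30. The starved libraries of Npc2, at 372, 321 and 346 CPM, had the order of the marker sum. Cd63 fell by 0.24 to 1465, 1464 and 1349.6 CPM, with an adjusted p of 0.0495 in edgeR's test, a call lost without any 1 of 10 libraries, all but control replicates 2 and 3. Npc1 was at 49.9, 50.1 and 54.2 CPM in starved and 51.9, 48.3 and 55.2 in re-added libraries and did not pass.

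In the pump, Atp6v1b2 had the largest fall of the 49 genes, from the starved values given above to 234, 241 and 236 CPM, below all control libraries, a change of -0.70 (SE 0.072, edgeR adjusted p = 1.99e-05). Atp6v1d fell by 0.55 to 121, 121 and 117 CPM, also below control. Both are V1 subunits, and the third V1 gene that fell, Atp6v1c1, which joins the outer stalks and leaves when the pump comes apart, fell by 0.28, as did Atp6v0d1, which couples the V0 ring to the stalk. The call of Atp6v1c1 was lost without starved replicate 2 or 3 or any re-added or Rap library, and that of Atp6v0d1 without starved replicate 2 or re-added replicate 2 or 3. Atp6v0a1 was the gene that rose, by 0.23 to 254, 269 and 279 CPM (edgeR adjusted p = 0.0465), a call lost without control replicate 1, starved replicate 1, re-added replicate 2 or 3 or any Rap library.

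**Figure D5:**
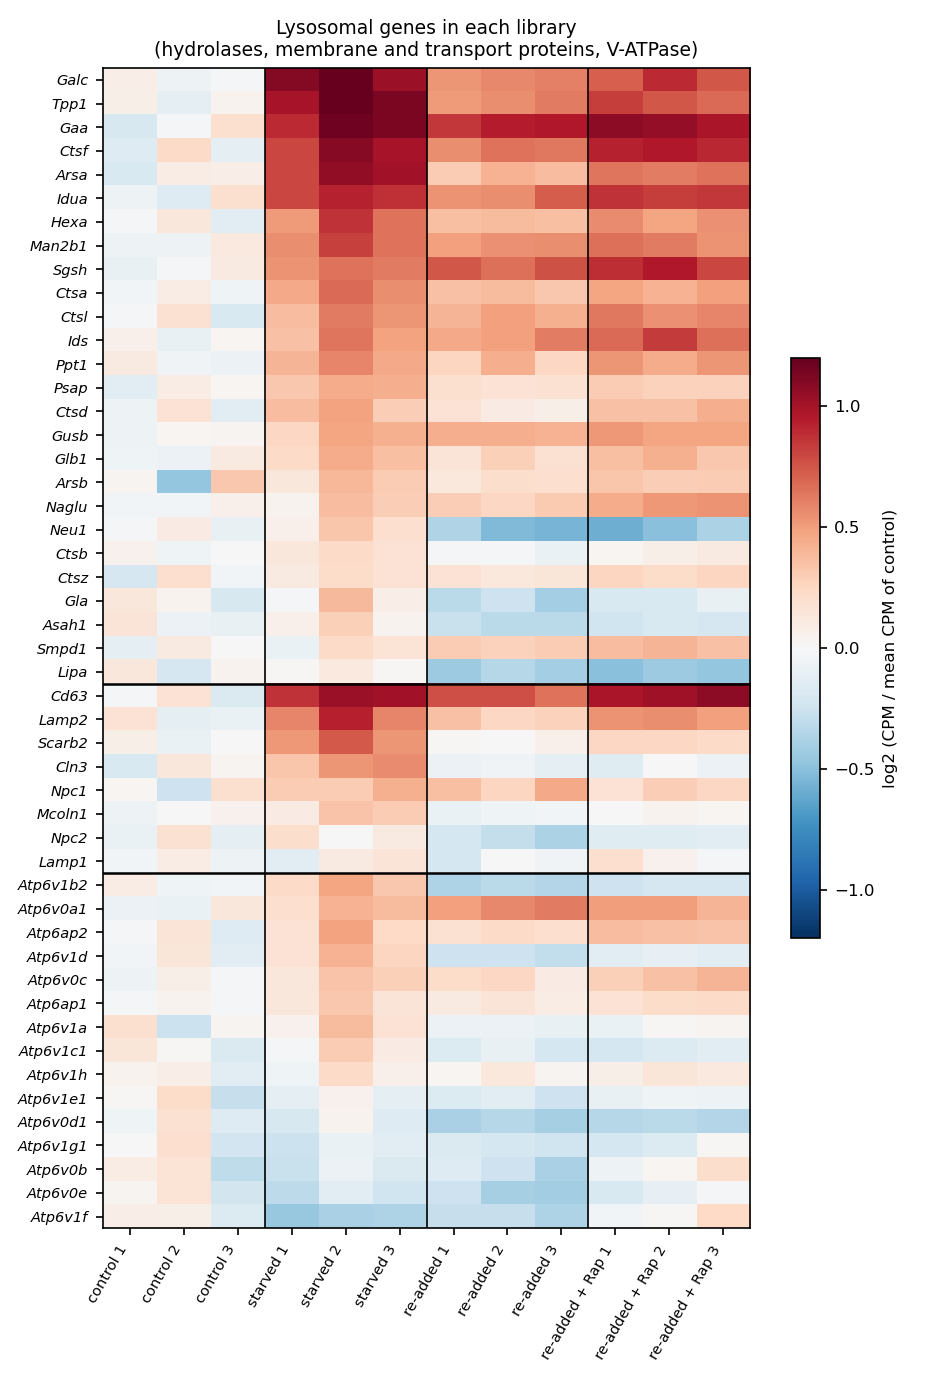
Log2 ratio of CPM to the mean control CPM (colour) for the 49 genes (rows, by class and then by their change on starvation) in the 12 libraries (columns). Starved replicate 2 is the most intense starved column for most rows, and Neu1, Lipa, Gla, Asah1, Atp6v1b2 and Atp6v0d1 lie below control after re-addition.

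The re-added cells were not back at control. Of the 49 genes, 22 were higher and 10 lower than in control, against 49.3% of all tested genes called, 24.8% higher and 24.5% lower. The libraries did not overlap for 35 of the 49, against 59.5% of all tested genes. The hydrolases were mostly above control, with 18 higher and 4 lower and a median of 0.34, led by Gaa at 0.92, Sgsh at 0.72 and Ctsf at 0.62. The 4 lower hydrolases were Neu1, Lipa, Gla and Asah1, at -0.48, -0.40, -0.33 and -0.31. Of the membrane and transport proteins Cd63, Lamp2 and Npc1 were higher and Npc2 lower. The V-ATPase had 5 genes lower (Atp6v0d1, Atp6v0e, Atp6v1b2, Atp6v1f and Atp6v1d) and 1 higher (Atp6v0a1, at 0.56), with a median of -0.18 that was -0.30 without control replicate 3 and -0.07 in TPM. The marker sum differed between all control and all re-added libraries. With that sum in the model 9 genes were higher and 6 lower, where 15.9% of all tested genes were called, and the hydrolase median was 0.18. The part of the marker RNA in the difference was not tested. Leaving out a single library ended 11 of the 32 calls, and re-added replicate 3 ended 10 of these: Gla, Glb1, Naglu, Psap, Lamp2, Npc1, Npc2, Atp6v0e, Atp6v1d and Atp6v1f. The remaining call, of Smpd1, was lost without control replicate 1.

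Rap given with the amino acids was compared with amino acids alone. Here 1 of the 49 genes passed, where 7.98% of all tested genes were called, 4.55% higher and 3.43% lower. The call was Atp6v1f, at 217, 224 and 261 CPM with Rap and 182, 182 and 171 without, a change of 0.39 (SE 0.087, edgeR adjusted p = 0.0179). It was lost without any of the re-added libraries and without Rap replicate 3. Fitted on these 6 libraries alone, 14 of the 49 genes were higher, where calls among all genes also grew, to 26.1% of the 15187 tested. With the DESeq2 test on all 12 libraries 9 of the 49 were higher, where 13.7% of all tested genes were called. Atp6v1f with Rap was within or above the range of its control libraries.

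The remaining 48 genes showed small differences, most on the same side. Of the 49, 44 had a log2 fold change above 0 and the median was 0.14, against 0.00 over all tested genes. With TPM in place of TMM-scaled counts the median of all genes was -0.08, 32 of the 49 were above 0, and their median relative to all genes was 0.12. The share of higher calls among all called genes was 57.0% with TMM and 29.0% in TPM. In TMM-scaled CPM the 3 Rap libraries lay wholly above the 3 re-added libraries for 37 of the 49 genes and wholly below for none. On this scale the groups did not overlap in either direction for 38.9% of all tested genes. Far fewer of the 49 lay wholly above in TPM: Cd63, Ctsf, Ctsd, Hexa, Gla, Naglu, Arsa, Atp6v0b and Atp6v1f. Lipa, Cln3, Npc1, Atp6v0a1, Atp6v0d1 and Atp6v1c1 lay wholly below in TPM. The rest overlapped there, Psap and Gaa among them. The marker sums of the Rap libraries were like those of re-added replicates 2 and 3, and with these 2 alone 44 genes were above 0 with a median of 0.10.

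Single genes illustrate the size. Ctsf was at 267, 273 and 263 CPM with Rap and 207, 221 and 218 without, a difference of 0.31 (SE 0.10, edgeR adjusted p = 0.09). Cd63 was at 1695, 1729 and 1809 CPM with Rap, a difference of 0.29 (SE 0.087, edgeR adjusted p = 0.0659). Scarb2 was at 352, 352 and 347 CPM with Rap, a difference of 0.22 (SE 0.072, edgeR adjusted p = 0.0947). For all 3 the groups did not overlap, and no adjusted p was under 0.05. Ctsd and Arsa differed by 0.27 and 0.27, and Atp6v0b by 0.33, again without passing. Neu1, at 68.5, 72.5 and 79.2 CPM, and Cln3, at 24.3, 26.8 and 25.7 CPM, overlapped their re-added libraries.

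Against starved cells, the Rap group had 5 genes higher and 15 lower, where 44.1% of all tested genes were called, 20.2% higher and 23.9% lower, and the libraries did not overlap for 26 of the 49 against 53.1%. Neu1, Atp6v1b2, Cln3 and Lipa were lowest, at -0.69, -0.56, -0.55 and -0.51. The 5 higher genes were Atp6v1f, at 0.48, and Sgsh, Smpd1, Naglu and Ids, at 0.23 to 0.28. Of these, Atp6v1f alone was called under every alternative, and single Rap libraries ended the calls of the other 4. Against control, the Rap group had 27 genes higher and 4 lower, where 53% of all tested genes were called, 27.7% higher and 25.3% lower, and the libraries did not overlap for 33 of the 49 against 61%. Gaa, Cd63 and Ctsf were highest, at 1.04, 1.03 and 0.93, and the 4 lower genes were Neu1, Lipa, Atp6v0d1 and Atp6v1b2, at -0.48, -0.46, -0.34 and -0.22. The call of Atp6v1b2 was lost without control replicate 1 or any Rap library. With the marker sum in the model, 8 genes were higher and 3 lower than control, where 11.5% of all tested genes were called. These comparisons share the control, starved or re-added libraries with those above.

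Genes with and without an E-box in the promoter window were set side by side. On starvation 11 of the 17 genes with an E-box in the window rose, with a median log2 fold change of 0.35, and 17 of the 25 genes with a window but no E-box rose, with a median of 0.33. On re-addition 8 of the 17 and 12 of the 25 fell. Of all tested genes 24.3% rose on starvation and 18.8% fell on re-addition. Galc, Tpp1 and Cd63 had no E-box in the window. Whether the genes with and without an E-box differ in their shares was not tested.

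Lysosomal genes outside the 49, listed by function, gave the setting. Of all tested genes, as above, 24.3% rose and 14.6% fell on starvation, 18.4% rose and 18.8% fell on re-addition, and 4.55% were higher and 3.43% lower with Rap. Of 34 other hydrolases 13 (38.2%) rose and 2 (5.88%) fell on starvation, and 1 (2.94%) rose and 8 (23.5%) fell on re-addition. Dpp7, a dipeptidyl peptidase, went from 45.8 ± 2.15 CPM in control to 96.6 ± 9.89 in starved, 52.7 ± 2.86 in re-added and 72.1 ± 5.91 in Rap cells (SD, n = 3). Of 35 other membrane proteins and transporters that could be tested 14 (40%) rose and 2 (5.71%) fell on starvation, and 5 (14.3%) rose and 13 (37.1%) fell on re-addition. Ctns, which exports cystine, was at 21.0 ± 1.19 CPM in control, 48.0 ± 1.45 in starved, 12.9 ± 1.07 in re-added and 17 ± 1.09 in Rap cells (SD, n = 3). Slc36a1, an amino acid exporter, rose by 1.09 on starvation, and Clcn7, a chloride-proton exchanger, rose by 0.60 and fell by 1.03 on re-addition. With Rap against amino acids alone, 4 (11.8%) of the 34 other hydrolases and 8 (22.9%) of the 35 other membrane genes were higher, among them Dpp7 at 0.45, Dnase2a at 0.60, Pip4p1 at 0.51 and Tmem175, a lysosomal ion channel, at 0.45.

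Other isoforms and assembly factors of the pump changed too. Of 7 other isoforms that could be tested 1 rose and 2 fell on re-addition, against 18.4% and 18.8% of all tested genes. The falls, of Atp6v1g2 and Tcirg1, were calls lost without re-added replicate 2, and for Tcirg1 also without starved replicate 1 or 3, re-added replicate 3 or Rap replicate 1 or 3. Tcirg1 was at 40.4, 25.8 and 31.1 CPM in starved and 27.5, 20.8 and 22.7 in re-added libraries. Its starved libraries had the order of the marker sum, and the part of the marker RNA in its fall was not tested. Atp6v0a2, an alternative to Atp6v0a1 in the V0 sector, was at 60.9, 64.6 and 63.5 CPM in starved and 119, 121 and 127 in re-added libraries, without overlap, a change of 0.96 (SE 0.11, edgeR adjusted p = 3.05e-05). Per length, it was at 28.8 ± 7.13 TPM in control beside 73.8 ± 11 TPM for Atp6v0a1 (SD, n = 3). Of 9 assembly and regulatory factors 4 (44.4%) rose and 3 (33.3%) fell on starvation, and 2 (22.2%) rose and 3 (33.3%) fell on re-addition. Ncoa7, a partner of the V1 sector, was at 22.3 ± 5.01 CPM in control, 61.2 ± 7.53 in starved and 24.7 ± 0.468 in re-added cells (SD, n = 3), a rise of 1.45 and a change of -1.31. Vma21, an assembly chaperone of the V0 sector, rose by 0.82 on re-addition.

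The genes that control or sort lysosomal proteins were also listed. Of the 7 genes of the MiT/TFE system 3 rose on starvation, 3 fell on re-addition and 2 were higher with Rap, against 24.3%, 18.8% and 4.55% of all tested genes. Flcn, the folliculin GTPase-activating protein through which amino acids act on TFEB and TFE3, was at 35.9, 36.9 and 40.3 CPM in control, 107, 127 and 103 in starved, 20.5, 18.8 and 20.4 in re-added and 27.5, 26.1 and 27.9 in Rap libraries. It rose by 1.57 on starvation, changed by -2.50 on re-addition and was higher by 0.45 with Rap (edgeR adjusted p = 2.58e-07, 1.51e-08 and 0.00927), and the last call was lost without re-added replicate 2. Its partners Fnip1 and Fnip2 rose by 0.75 and 0.70 and changed by -1.36 and -0.73. Tfeb and Tfe3 themselves were at 24.9 ± 4.23 and 45.9 ± 4.51 CPM in control and at 22.2 ± 0.964 and 52.2 ± 5.79 CPM in starved cells (SD, n = 3). Of 23 sorting genes 9 (39.1%) rose and 3 (13%) fell on starvation, with Sorl1, a sorting receptor, at 1.02 and Ap1s1, an adaptor subunit, at -0.66. On re-addition 4 (17.4%) rose and 7 (30.4%) fell. The share that fell on starvation and the share that rose on re-addition were near those of all tested genes, 14.6% and 18.4%.

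Some other lysosomal proteases followed the marker RNA from library to library, a set named after its values were seen. Ctss, abundant in leukocytes, was at 85.7, 105 and 96.2 CPM in control, 79.6, 3.05 and 41.1 in starved, 32.4, 2.62 and 2.39 in re-added and 2.06, 2.37 and 2.16 in Rap libraries. Ctsc and Ctsh had the same order of starved libraries, with replicate 1 highest and replicate 2 lowest. In 44 of the 49 genes replicate 2 was the highest starved library, as given above. Npc2 alone among the 49 had replicate 1 highest and replicate 2 lowest. The part of the marker RNA in its changes was not tested.

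Some counts may hold reads of a neighbour or lack reads that fall in shared exons. The strand setting of the counting is not given in the sources used here. Ctsb shares 16.2% of its exon bases with Fdft1 on the opposite strand and Ctsa 10.5% with Pltp. Ppt1 shares 3.51% with Cap1, whose level reached 304 CPM. Among weaker genes, Idua (mean over all libraries 32 CPM) shares 2.95% with Dgkq, at up to 18.5 CPM, Npc1 (47.8 CPM) 1.79% with 3110002H16Rik, at up to 32.5 CPM, and Cln3 (28.9 CPM) 7.65% with Apobr, at up to 7.67 CPM. On their own strand, Ctsd shares 34.4% with AC034099.1, which was at 0 CPM throughout, and Atp6v0c 27.4% with Gm43796, at up to 0.0985 CPM. Few or no reads in the shared bases were thus counted for these neighbours. Whether such reads were lost for Ctsd and Atp6v0c was not tested. Glb1 shares 5.49% with Tmppe on its own strand, at up to 13.2 CPM. A processed copy of Cd63 was at up to 7.21 CPM, so reads of the copy and of Cd63 could be split. The values of these genes are uncertain to that extent.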

How the data were processed

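Reads per gene were counted by the authors with Subread 2.0.1 on GRCm38.p6, per the submitters' processing notes, which also name limma 3.46.0. The deposited files hold raw counts per gene for each library and a table of TPM (transcript levels per gene length, scaled to a common total) that the authors made from them. The deposited TPM differ from counts divided by length and rescaled by at most 5.0e-05. Strand setting: not given in the sources used here.

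From the counts, TMM factors (0.958 to 1.085) and edgeR's quasi-likelihood test (edgeR 4.0.16, R 4.3.3) were computed in 1 fit of all 12 libraries with a mean for each of the 4 groups (8 residual degrees of freedom), on the 16844 genes that passed filterByExpr (minimum count 10, minimum total 15), which hold 99.9% of the counts. P-values were Benjamini-Hochberg adjusted over all 16844 genes for each of 6 comparisons, with a threshold of 0.05. Values per library are CPM scaled by TMM factors, and marker sums are CPM of the raw total. At 5 CPM a control library holds 94.2 to 128 reads. No pair of replicates agreed within sampling noise. The fit was tested on simulated data.

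The members and lists were chosen with earlier results of these data known. Named genes are those with the largest called changes in each class, the highest control TPM, members never called, and the smallest adjusted p in the other lists. Some genes that this rule names are not reported here. Promoter windows come from a RefSeq table of GRCm38.p6. Alternatives were upper-quartile and DESeq2 (1.42.0) scaling, the DESeq2 test, no filter, limma 3.58.1 on log2(TPM + 1) with TPM of at least 1 in 3 libraries, the 6 libraries of a comparison alone, each library left out, a replicate block, and the marker sum as covariate or for matching.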

Additional observations from a re-analysis of the deposited data

How the results depend on the processing

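No called change of the 49 genes turned its direction under any alternative run. Of the 32 calls between starved and control cells 19 held under all alternatives, of the 25 between re-added and starved cells 11, of the 20 between Rap and starved cells 11, of the 32 between re-added and control cells 12, of the 31 between Rap and control cells 11, and the 1 call between Rap and re-added cells did not. Leaving out each of the 12 libraries in turn gave 26 to 31 genes higher and 1 to 4 lower in starved against control cells, 0 to 2 higher and 16 to 25 lower in re-added against starved, 0 to 4 higher in Rap against re-added, 1 to 5 higher and 10 to 16 lower in Rap against starved, 17 to 24 higher and 5 to 13 lower in re-added against control, and 25 to 28 higher and 3 to 6 lower in Rap against control. In these fits 31.6% to 41.9%, 27.7% to 41.2% and 3.7% to 12% of all genes were called in the first 3 comparisons. In the last 3 the shares were 28.9% to 48.2%, 30.4% to 51.1% and 42.8% to 53.3%. Upper-quartile factors gave 22 higher and 4 lower in starved against control, where 39.4% of all genes were called. In re-added against starved they gave 2 higher and 17 lower (39.7%). In Rap against re-added they gave 4 higher (10.4%), and in Rap against control 7 lower (53.9%). DESeq2 size factors in edgeR gave 2 lower in starved against control and 2 higher in re-added against starved (38.6% and 38.4% of genes called). The DESeq2 test gave 2 lower and 2 higher in the same 2 comparisons (40.1% and 39.5%). It gave 9 higher in Rap against re-added and 7 lower in Rap against control (13.7% and 53.1%). In TPM, limma gave 40 higher in starved against control, where 44.1% of all genes were called. It gave 3 higher in Rap against re-added (11.6%), 1 higher in Rap against starved (37.5%) and 6 lower in re-added against control (50.8%). With only the 6 libraries of a comparison, 22 were higher in starved against control, where 25.5% of all genes were called. In re-added against starved 2 were higher (43.9%), and in Rap against re-added 14 (26.1%). With libraries matched on marker sum the median of the 49 genes was 0.22 in starved against control. It was -0.21 in re-added against starved and -0.09 in Rap against starved. These fits hold fewer libraries, with a lone starved library whose spread is taken from the others. The matched fit of Rap against re-added, which leaves out re-added replicate 1, gave 0 higher, where 6.04% of all genes were called. With the marker sum as covariate, 0 were higher in re-added against starved (37.1% of all genes called) and 1 in Rap against starved (29.8%). In re-added against control 9 were higher and 6 lower (15.9%), and in Rap against control 8 were higher (11.5%). No matched fit was made against control for the re-added and Rap groups, whose marker sums all lay below those of control. The causes of these differences between settings were not tested.

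With the replicate number as a block, 30 genes were higher and 1 lower in starved against control, where 38.7% of all genes were called. In re-added against starved 0 were higher and 23 lower (35.4%). In Rap against re-added 1 was higher (6.33%), and in Rap against starved 4 were higher and 13 lower (41.1%). In re-added against control 22 were higher and 10 lower (48.1%), and in Rap against control 28 and 4 (51%). Libraries that share a number had correlations from -0.332 to 0.812 of their deviations from the group means. Between starved and re-added libraries they were 0.812, 0.672 and -0.332 for replicates 1, 2 and 3. Starved replicate 2 and re-added replicate 1 had -0.83. The marker sum also varied among these libraries, so the correlations cannot decide whether the numbers pair the samples.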
